A study of Homo sapiens with 9 samples.

Results

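The 10 genes described here hold back MAP kinase signalling: the dual-specificity phosphatases DUSP1, DUSP2, DUSP4, DUSP5, DUSP6, DUSP7, DUSP8 and DUSP10, and the inhibitors SPRY2 and SPRED1. They were chosen by name, as negative feedback genes of the pathway, at a time when their values in these libraries were known. Each of the 10 symbols matched 1 of the 56541 genes in the table. The cells were MOLM-13, a human acute myeloid leukaemia line with a KMT2A fusion and an activating duplication in the receptor FLT3. There were 3 groups of 3 libraries: RNA-seq with a control hairpin (shCONTROL), RNA-seq with a hairpin targeting the RNA-binding protein BCLAF1 (shBCLAF1), and RNA immunoprecipitated with BCLAF1 from shCONTROL cells (RIP). Every culture, controls included, had received doxycycline at 200 ng/µL for 4 days, and all libraries carried 1 batch label. The labels name 1 control and 1 BCLAF1 hairpin without their sequences, do not say whether a line is a clone or whether replicates were separate cultures, and name no mock precipitation. The p-values below therefore measure only the spread between these samples, and the RIP was set against total RNA of the same kind of cell.

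MAP kinases are switched on by phosphate on a threonine and a tyrosine, and the dual-specificity MAP kinase phosphatases remove both. DUSP1, DUSP2, DUSP4 and DUSP5 work in the nucleus and are made quickly after a stimulus, DUSP6 and DUSP7 act on ERK in the cytoplasm, and DUSP8 and DUSP10 prefer the stress kinases p38 and JNK. Sprouty and SPRED proteins act further up, between the receptor and the kinases below RAS, and many of these genes are themselves switched on by ERK, which closes a negative feedback loop. In leukaemia cells with an active FLT3 receptor, this loop can limit how much ERK activity the cells carry. ERK activity itself is not measured by these libraries.

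The upstream sequences of 4 members are shown because these members differed most between groups or form a pair of close paralogues: DUSP1 and DUSP8, the members higher in the RIP, DUSP7, the member with the best measured loss after knock-down, and DUSP6, its paralogue. Each is the 250 bases before a RefSeq start on GRCh38.p14, read 5′ to 3′ on the minus strand, at chr5:172771196-172771445 for DUSP1, chr11:1572272-1572521 for DUSP8, chr3:52056572-52056821 for DUSP7 and chr12:89352502-89352751 for DUSP6. The DUSP8 window lies inside the annotated span of the gene, which has another start further out. Capitals mark the cAMP response element TGACGTCA, the E-box CACGTG, the TATA box TATAAA and the CCAAT box, which reads ATTGG on the other strand.
DUSP1: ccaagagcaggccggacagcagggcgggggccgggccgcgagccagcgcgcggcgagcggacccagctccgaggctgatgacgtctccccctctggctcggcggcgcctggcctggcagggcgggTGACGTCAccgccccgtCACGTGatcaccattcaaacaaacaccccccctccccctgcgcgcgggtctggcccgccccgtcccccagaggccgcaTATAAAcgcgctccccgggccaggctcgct
DUSP8: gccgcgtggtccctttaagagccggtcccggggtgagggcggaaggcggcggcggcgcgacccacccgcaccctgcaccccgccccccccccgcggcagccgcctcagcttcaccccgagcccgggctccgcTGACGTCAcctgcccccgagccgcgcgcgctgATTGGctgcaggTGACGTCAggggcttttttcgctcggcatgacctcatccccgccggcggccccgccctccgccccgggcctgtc
DUSP7: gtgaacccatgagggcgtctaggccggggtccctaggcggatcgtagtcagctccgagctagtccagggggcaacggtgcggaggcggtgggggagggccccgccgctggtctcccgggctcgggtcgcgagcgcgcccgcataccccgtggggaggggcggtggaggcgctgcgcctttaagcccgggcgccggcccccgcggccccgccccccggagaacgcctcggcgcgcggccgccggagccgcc
DUSP6: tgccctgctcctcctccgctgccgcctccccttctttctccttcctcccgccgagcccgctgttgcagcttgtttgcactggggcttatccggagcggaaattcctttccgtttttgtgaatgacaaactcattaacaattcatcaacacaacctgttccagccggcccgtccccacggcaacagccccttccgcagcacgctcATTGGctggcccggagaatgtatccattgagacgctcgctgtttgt
RefSeq windows were matched for 8 member genes (11 windows, since some have several starts), and 34788 distinct windows of the same length served as the background. DUSP4 was left out of this search and DUSP5 had no window in the set, so the member matches below do not cover them. The cAMP response element, read on both strands, occurred in 1.64% of all windows and in those of DUSP1 (125 bases before the start) and DUSP8 (118 and 74 bases before it). DUSP7 held none of the capitalised motifs, and DUSP6 held 1 CCAAT box 46 bases before its start, a motif present in 32.0% of windows. The GC box GGGCGG, found in 42.6% of windows, was present in all matched members except DUSP6. In none of the matched member windows did a CArG box (1.17% of all windows), the AP-1 letters TGANTCA (6.59%) or the ETS letters CCGGAAG (8.50%) occur. GC content was 74.4% for DUSP1, 76.8% for DUSP8, 78.4% for DUSP7 and 57.2% for DUSP6, against a median of 58.0% over all windows. A match says only that the letters are there.

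Of the 10 members, 9 had enough counts to be tested, and DUSP4 stood at 0. After BCLAF1 knock-down DUSP7 fell to 49.0% of the control level, DUSP8 was listed at 0 in every shBCLAF1 library while its pseudogene DUSP8P5 rose, and SPRED1 was higher by 0.42 on the log2 scale, a call lost in 4 of the 6 fits without a single library and with all 9 libraries in 1 fit. In the RIP DUSP1 and DUSP8 were higher than in total RNA, by 1.37 and 2.00 on the log2 scale. The other members differed by less or did not pass. So 1 of 9 tested members was called higher after knock-down, where 15.5% of all genes tested were, and 2 of 9 were called lower, where 16.9% were. In the RIP 2 of 9 were called higher and 0 lower, against 11.1% and 13.6% of all genes. The libraries of the groups did not overlap for 6 of 9 members in each contrast, against 49.3% of all genes tested after knock-down and 67.1% in the RIP. Since the members were chosen with their values known, these counts are a description and nothing is read from them.

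A call means an adjusted p under 0.05 by edgeR's quasi-likelihood test with Benjamini-Hochberg adjustment over all genes, and for the RIP also a log2 difference no smaller than 1 in size. Both contrasts share the shCONTROL libraries. Levels are counts scaled by TMM to the library total (CPM), with mean ± SD over n = 3 libraries, and they are not divided by transcript length, so levels of different genes are not compared. In bulk RNA, fewer cells with a transcript and less of it per cell cannot be told apart.

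**Figure D1:**
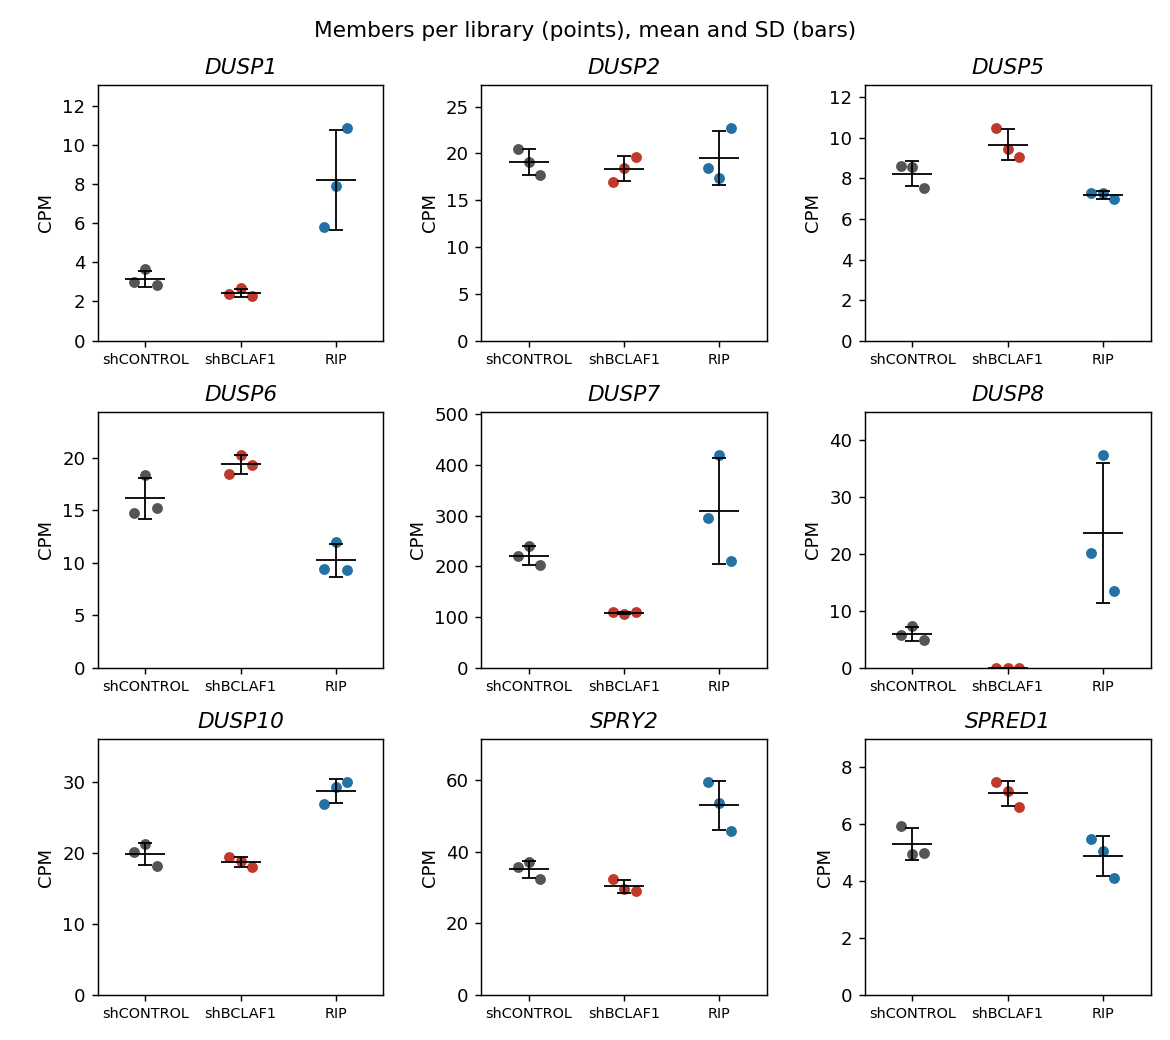
Level of each detected member in every library, in CPM on a linear axis from 0, with the group mean (long bar) and SD (whiskers) of n = 3. DUSP7 sits near 109 CPM in shBCLAF1 against 203 to 240 in shCONTROL, DUSP8 is at 0 in all shBCLAF1 libraries, and the RIP points of DUSP1, DUSP7 and DUSP8 are spread widely.

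DUSP1 (ENSG00000120129, chromosome 5, 172768096 to 172771195) encodes the founding, stress-inducible MAP kinase phosphatase. Its level was 2.97, 3.64 and 2.86 CPM in the shCONTROL libraries, 2.39, 2.67 and 2.26 after knock-down and 5.80, 7.89 and 10.9 in the RIP. All 3 RIP libraries lay above all controls and all 3 knock-down libraries below them. The RIP difference was 1.37 (SE 0.27, log2) and was called. The knock-down difference was -0.37 (SE 0.15) and was not called. These levels rest on 83 to 123 counts per RNA-seq library.

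DUSP2 (ENSG00000158050, chromosome 2, 96143169 to 96145440), a nuclear phosphatase of activated blood cells, read 20.5, 19.1 and 17.7 CPM in shCONTROL, 17.0, 18.4 and 19.7 after knock-down and 18.4, 17.3 and 22.8 in the RIP. The 3 groups overlapped. The differences were -0.05 (SE 0.09) after knock-down and 0.02 (SE 0.14) in the RIP, on the log2 scale.

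DUSP4 (ENSG00000120875, chromosome 8, 29333064 to 29350684), a nuclear ERK phosphatase, had 0 counts in all 9 libraries. A count of 0 allows up to 3 counts per library, which equalled 0.0789 to 0.118 CPM, and this limit covers counting error only.

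DUSP5 (ENSG00000138166, chromosome 10, 110497907 to 110511533), which binds ERK and holds it in the nucleus, read 8.64, 8.59 and 7.51 CPM in shCONTROL, 10.5, 9.44 and 9.05 after knock-down and 7.29, 7.29 and 6.98 in the RIP. The knock-down libraries lay above the controls and the RIP libraries below them, each without overlap. The differences were small, 0.23 (SE 0.10) after knock-down and -0.20 (SE 0.13) in the RIP on the log2 scale, and neither was called.

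Of the cytoplasmic ERK phosphatases, DUSP7 was called after knock-down and DUSP6 was called in neither contrast. DUSP6 (ENSG00000139318, chromosome 12, 89347235 to 89352501), a standard readout of ERK activity, read 14.8, 18.4 and 15.2 CPM in shCONTROL, 18.5, 20.3 and 19.3 after knock-down and 9.41, 12.03 and 9.27 in the RIP. The highest control and the lowest knock-down library nearly touched, while all RIP libraries lay well below the controls. The knock-down difference was 0.27 (SE 0.10, log2) and was not called, but it was called at 0.38 without shCONTROL replicate 2. The RIP difference of -0.66 (SE 0.16) passed the adjusted p but not the minimum change. A read-through gene, POC1B-DUSP6, covers the same locus in RefSeq, so reads of it may count here. The strand setting of the counting is not given in the sources used here.

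DUSP7 (ENSG00000164086, chromosome 3, 52048919 to 52056571) read 221, 240 and 203 CPM in shCONTROL, 109, 106 and 110 after knock-down and 296, 421 and 211 in the RIP. The knock-down libraries were all at about the same level, far below every control. A noncoding gene, LOC124906238, overlaps DUSP7 in RefSeq, so reads of it may count here too. The group means were 221 ± 18.6 CPM (SD, n = 3) in shCONTROL and 109 ± 2.14 (SD, n = 3) in shBCLAF1, and the log2 fold change was -1.02 (SE 0.07). Leaving out each library in turn kept it between -1.08 and -0.95. In the RIP the lowest library lay among the controls, and the difference of 0.48 (SE 0.25) was not called. The RIP value ran from 0.18 to 0.70 when single libraries were left out.

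Within each library the log2 ratio of DUSP7 to DUSP6 CPM was 3.71 to 3.90 in shCONTROL, 2.39 to 2.56 after knock-down and 4.51 to 5.13 in the RIP. The mean ratio was thus lower by 1.30 log2 units after knock-down and higher by 1.09 in the RIP, with no overlap between groups. Single genes without overlap made up 49.3% of all genes tested after knock-down and 67.1% in the RIP. No such share was counted for ratios. In the RIP neither DUSP7 (0.48) nor DUSP6 (-0.66) was called by itself. Only the differences can be read, since the ratio itself depends on transcript length.

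DUSP8 (ENSG00000184545, chromosome 11, 1554051 to 1572848), a phosphatase of p38 and JNK, ranged from undetected to well above the controls. Its level was 5.66, 7.28 and 4.89 CPM in shCONTROL, 0 in each of the 3 shBCLAF1 libraries and 20.1, 37.5 and 13.6 in the RIP. The RefSeq genes KRTAP5-AS1, at 0 in every library, and LOC124902608 overlap it. In counts the levels were 200, 246 and 176, then 0, 0 and 0, then 513, 1059 and 391. Against the limit of 3 counts per library the knock-down mean was at least 74.4-fold lower, a bound for the deposited values only. The RIP difference was 2.00 (SE 0.41, log2), called, and 1.49 without RIP replicate 2, the highest library.

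The DUSP8 zeros stand beside an opposite movement of a gene named as its pseudogene, DUSP8P5 (chromosome 10, 73731600 to 73735340), which was picked out after its values were seen. DUSP8P5 had 248, 270 and 232 counts in shCONTROL, 413, 430 and 444 after knock-down and 226, 336 and 127 in the RIP. It rose after knock-down by 0.68 (SE 0.11, log2; edgeR adjusted p = 0.00516). The counts of DUSP8 and DUSP8P5 together were 448, 516 and 408 in shCONTROL and 413, 430 and 444 in shBCLAF1, and these ranges overlapped. With both summed into 1 gene, an alternative chosen after seeing the data, the knock-down difference was -0.19 (SE 0.13) and was no longer called. The RIP difference of the sum was 1.29 (SE 0.37) and still called, with 739, 1395 and 518 counts. Whether the authors' assignment of reads between gene and pseudogene differed between the groups was not tested, so the loss of DUSP8 after knock-down is uncertain.

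**Figure D2:**
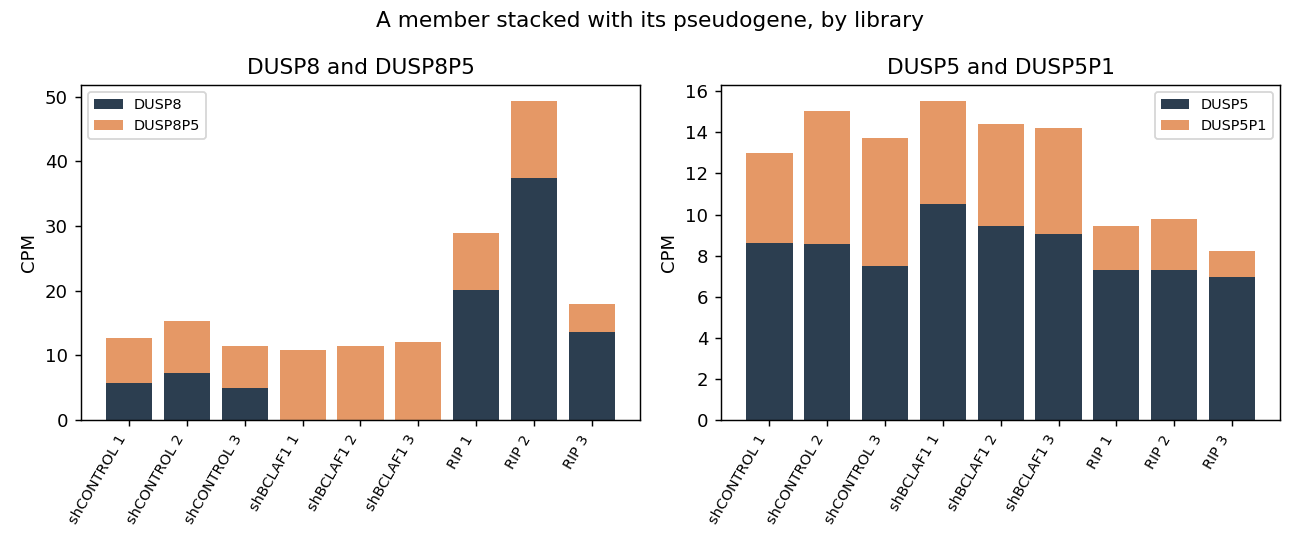
CPM of DUSP8 stacked with DUSP8P5 (left) and of DUSP5 stacked with DUSP5P1 (right) in each of the 9 libraries, on linear axes from 0. The shBCLAF1 bars of the left panel hold pseudogene counts alone, yet reach 11.4 CPM on average against 13.1 for the shCONTROL sum.

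The transcribed pseudogene DUSP5P1 (chromosome 1, 228644910 to 228652425) showed another picture. It had 154, 218 and 223 counts in shCONTROL, 191, 188 and 189 after knock-down and 55, 71 and 36 in the RIP. It did not pass after knock-down (-0.16, SE 0.17; adjusted p = 0.518) and fell in the RIP (-1.52, SE 0.33; edgeR adjusted p = 0.00976). The sum with DUSP5 differed by 0.08 (SE 0.09) after knock-down and by -0.61 (SE 0.13) in the RIP, and whether reads were shared between them was not tested. A further limit of the table bears on any zero: 201 genes stood at 0 in 1 library of a group while both its replicates had more than 100 counts.

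DUSP10 (ENSG00000143507, chromosome 1, 221701424 to 221742089), a phosphatase of p38 and JNK, read 20.1, 21.3 and 18.1 CPM in shCONTROL, 19.4, 18.9 and 18.0 after knock-down and 26.9, 29.3 and 30.0 in the RIP. Control and knock-down overlapped (-0.08, SE 0.08, log2), while every RIP library lay above every control. The RIP difference of 0.53 (SE 0.10) passed the adjusted p but not the minimum change.

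SPRY2 (ENSG00000136158, chromosome 13, 80335976 to 80341126) encodes a Sprouty protein that blocks signalling from receptor tyrosine kinases to RAS. Its level was 35.8, 37.1 and 32.5 CPM in shCONTROL, 32.5, 29.6 and 29.1 after knock-down and 59.5, 53.7 and 45.7 in the RIP. The lowest control and the highest knock-down library met at 32.5, and the difference of -0.20 (SE 0.08, log2) was not called. All RIP libraries were above the controls, and the difference of 0.59 (SE 0.12) passed the adjusted p but not the minimum change.

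SPRED1 (ENSG00000166068, chromosome 15, 38252836 to 38357249) encodes a protein that brings the RAS-inactivating protein NF1 to the membrane. It read 5.95, 4.94 and 5.01 CPM in shCONTROL, 7.49, 7.16 and 6.60 after knock-down and 5.49, 5.06 and 4.10 in the RIP. All knock-down libraries lay above all controls, and the RIP overlapped the controls. The knock-down difference of 0.42 (SE 0.12, log2) was called, but the call was lost without shCONTROL replicate 2 (0.38), shCONTROL replicate 3 (0.39), shBCLAF1 replicate 1 (0.38) or shBCLAF1 replicate 2 (0.41). The RIP difference was -0.12 (SE 0.19).

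**Figure D3:**
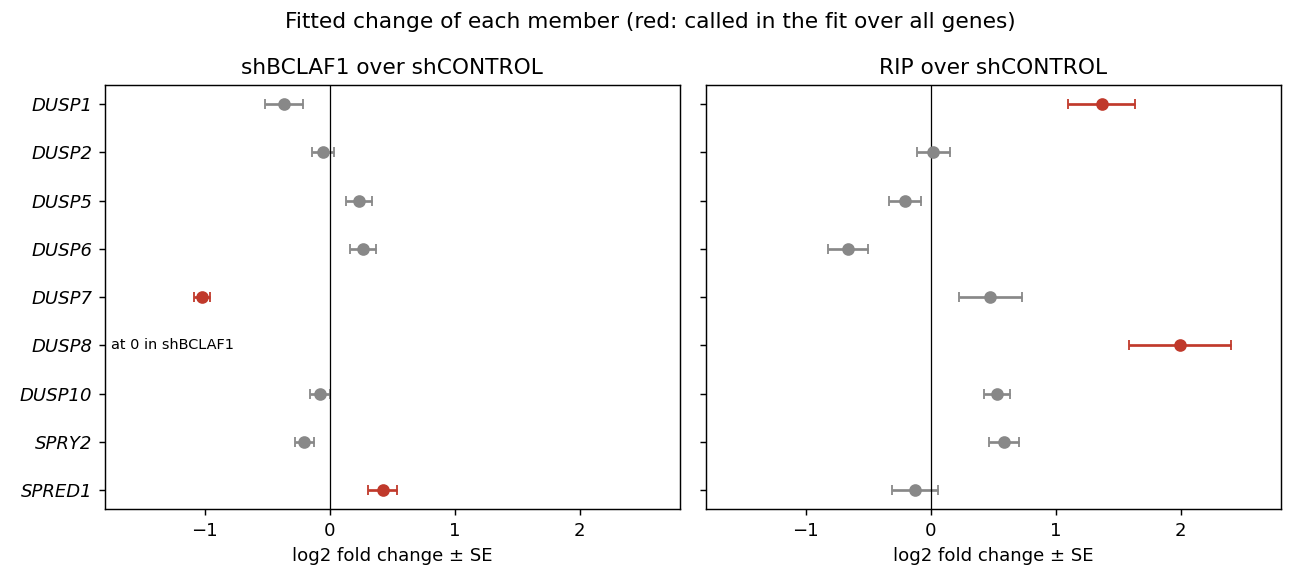
Fitted log2 fold change with its SE for each detected member, after knock-down (left) and in the RIP (right), both against shCONTROL with n = 3 per group. Red points were called: DUSP7 at -1.02 and SPRED1 at 0.42 on the left, DUSP1 at 1.37 and DUSP8 at 2.00 on the right, and DUSP8 has no point on the left because its knock-down libraries were at 0.

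The members also differed in how far their RIP libraries lay from each other. The coefficient of variation over the RIP libraries was 52.1% for DUSP8, 34.1% for DUSP7 and 31.3% for DUSP1, but 5.70% for DUSP10 and 2.52% for DUSP5, against a median of 17.7% over 14214 genes. In shCONTROL the median over genes was 6.39%. DUSP7 and DUSP8 had the same order in the RIP, highest in replicate 2 and lowest in replicate 3, whereas DUSP1 was highest in replicate 3 and SPRY2 in replicate 1. No single RIP library was high for all of them.

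The few relatives of the members gave little else. DUSP16, a JNK phosphatase and paralogue of DUSP10, fell after knock-down from 15.0 ± 2.17 to 11.4 ± 0.549 CPM (-0.40, SE 0.12, log2; edgeR adjusted p = 0.0490). That call was lost when any 1 of the 6 libraries was left out, at -0.46 to -0.26. In the RIP DUSP16 stood at 19.0 ± 2.78 CPM (0.33, SE 0.16) and did not pass. DUSP9, an ERK phosphatase and paralogue of DUSP6 and DUSP7, was at 0 in every library. The ratio of DUSP10 to DUSP16 was higher by 0.31 log2 units after knock-down, with no overlap, and the RIP values overlapped the controls.

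None of the 3 tested Sprouty and SPRED genes outside the members was called in either contrast. Of all genes 15.5% rose and 16.9% fell after knock-down, and 11.1% were higher and 13.6% lower in the RIP. SPRY1 read 6.67 ± 1.36 CPM in shCONTROL, 5.77 ± 0.759 after knock-down and 8.50 ± 0.796 in the RIP. The log2 ratio of SPRY2 to SPRY1 differed from shCONTROL by -0.009 after knock-down and by 0.22 in the RIP, with overlap both times. SPRED2, a RAS pathway inhibitor like SPRED1, read 66.1 ± 3.92, 68.3 ± 2.499 and 131 ± 29.0 CPM. Its RIP difference of 0.98 (SE 0.18; edgeR adjusted p = 0.00530) fell just short of the minimum change, and it was called without shCONTROL replicate 2 (1.02) or RIP replicate 3 (1.15). SPRY4 had 158, 106 and 0 counts in shCONTROL, 194, 0 and 0 after knock-down and 86, 0 and 0 in the RIP, so nothing can be said of it. SPRY3 and SPRED3 were at 0 throughout.

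Among the kinase cascades that the members restrain, those of the stress branch were counted first. The list also holds kinases above and below the MAP kinases. Of 17 tested genes of the p38, JNK and ERK5 cascades, 6 rose after knock-down and 1, MAPKAPK3, fell, where 15.5% of all genes rose and 16.9% fell, with a list median of 0.05 (log2) against 0.02 over all genes. The 6 were MAPKAPK2, MAPK14, MAP3K5, MAP2K3, MAPK7 and MAPK11. MAPK14, the main p38 kinase, went from 133 ± 4.08 to 229 ± 6.24 CPM (0.78, SE 0.04; edgeR adjusted p = 0.000185). Its target kinase MAPKAPK2 went from 144 ± 1.96 to 258 ± 3.62 CPM (0.84, SE 0.03; adjusted p = 9.73e-05). MAP3K5, which starts the stress cascade after oxidative stress, went from 35.9 ± 0.614 to 56.3 ± 0.896 CPM (0.65, SE 0.04; adjusted p = 0.000257). In the RIP 5 of 17 were higher and 0 lower, against 11.1% and 13.6% of all genes. The 5 were MAPKAPK2, MAP3K4, MAPK12, MAP2K3 and MAPK11, with a list median of 0.53 against -0.05 over all genes. MAP3K4 stood at 86.9 ± 0.771 CPM in shCONTROL and 248 ± 26.3 in the RIP (1.504, SE 0.10; adjusted p = 0.000285), and MAPKAPK2 reached 534 ± 188 in the RIP (1.89, SE 0.26; adjusted p = 0.00189).

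Of 21 tested genes of the cascade from the receptor over RAS to ERK, 7 fell and 2 rose after knock-down, MAP2K1 among the latter, against the same 16.9% and 15.5% of all genes, with a list median of -0.14. With single libraries left out 5 to 7 fell, and 4 with all 9 libraries in 1 fit. The call of MAP2K1 was lost without shCONTROL replicate 1 (0.28) or shBCLAF1 replicate 2 (0.27). GRB2, the adaptor that links receptors to RAS, went from 298 ± 1.23 to 206 ± 8.20 CPM (-0.53, SE 0.04; edgeR adjusted p = 0.000376). The RAS exchange factor SOS1 went from 116 ± 2.38 to 86.8 ± 4.58 CPM (-0.42, SE 0.05; adjusted p = 0.00183), and the ERK target kinase RPS6KA1 from 366 ± 4.44 to 274 ± 10.2 (-0.41, SE 0.04; adjusted p = 0.000724). In the RIP 1 of 22 passed, NRAS, which was lower (119 ± 7.23 against 51.9 ± 5.39 CPM; -1.20, SE 0.10; adjusted p = 0.000462). The adaptor gene SHC1 was called lower there too without shCONTROL replicate 2 (-1.03) or RIP replicate 3 (-1.01). Of all genes 11.1% were called higher and 13.6% lower in the RIP, and the list median there was 0.01.

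Genes that ERK induces did not move in 1 direction. Of 20 tested, 9 fell and 5 rose after knock-down, where 16.9% of all genes fell and 15.5% rose, with a list median of -0.34. Only 6 were called lower without shCONTROL replicate 1, shCONTROL replicate 2 or shBCLAF1 replicate 1, and 5 with all 9 libraries in 1 fit. Among those that fell, EGR1 lost its call in 5 of the 6 fits without a single library (-0.48 to -0.39), BTG2 in 5 (-0.39 to -0.24) and ETV4 in 4 (-0.20 to -0.17). MYC, the growth regulator, went from 679 ± 14.2 to 368 ± 7.25 CPM (-0.88, SE 0.03; edgeR adjusted p = 9.73e-05), and the transcription factor gene JUN from 14.2 ± 1.95 to 8.004 ± 0.564 CPM (-0.83, SE 0.12; adjusted p = 0.00386). The 5 that rose were FOS, FOSB, FOSL1, MCL1 and SRF. The call of FOSB was lost without shCONTROL replicate 2 (0.57) or 3 (0.71) or shBCLAF1 replicate 1 (0.55) or 2 (0.72), and that of MCL1 without shCONTROL replicate 1 (0.20) or 3 (0.15) or shBCLAF1 replicate 1 (0.19) or 2 (0.17). In the RIP 4 were higher and 0 lower, against 11.1% and 13.6% of all genes, with a list median of 0.44. They were FOSB (2.73 ± 0.410 against 24.8 ± 9.80 CPM; 3.18, SE 0.34; adjusted p = 0.000806), JUN (52.1 ± 12.3 CPM in the RIP; 1.87, SE 0.21; adjusted p = 0.000928), KLF4 (6.63 ± 0.430 against 17.3 ± 0.279; 1.38, SE 0.11; adjusted p = 0.000382) and NR4A1, whose call was lost at 0.96 without RIP replicate 2. These 4 encode transcription factors made soon after a stimulus, as DUSP1 is. Of the same list, EGR1 (0.50, SE 0.28), EGR2 (-0.17, SE 0.37) and EGR3 (-0.04, SE 0.35) were not called in the RIP. Neither were DUSP2 (0.02) and DUSP5 (-0.20), which are also made quickly after a stimulus.

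Other brakes on receptor, RAS and MAP kinase signalling were mixed. Of 18 tested, 3 rose (SOCS3, SOCS1 and RASA2) and 5 fell (CBL, SH2B3, SOCS2, PEBP1 and PTPN7) after knock-down, against 15.5% and 16.9% of all genes, with a median of -0.08. With all 9 libraries in 1 fit 2 fell. The call of PEBP1 was lost without shCONTROL replicate 1 (-0.18) or 3 (-0.21) or shBCLAF1 replicate 2 (-0.22) or 3 (-0.20). SOCS3, an inhibitor of cytokine receptors, went from 9.19 ± 0.912 to 20.8 ± 0.839 CPM (1.19, SE 0.09; edgeR adjusted p = 0.000471), whereas its relative SOCS2 went from 118 ± 1.62 to 81.3 ± 2.26 (-0.53, SE 0.04; adjusted p = 0.000334). CBL, which marks active receptors for destruction, went from 225 ± 7.65 to 161 ± 6.58 CPM (-0.48, SE 0.05; adjusted p = 0.000859). In the RIP PEBP1, an inhibitor of the ERK cascade, was lower at 23.3 ± 0.672 against 180 ± 11.8 CPM (-2.95, SE 0.09; adjusted p = 0.000142). RASA3 was the 1 gene called higher there, a call lost at 0.84 without RIP replicate 2, and the list median was -0.09. So 1 of 18 was called higher and 1 lower in the RIP, against 11.1% and 13.6% of all genes.

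Of the atypical dual-specificity phosphatases and their relatives, most of which lack the domain that docks MAP kinases, 10 were tested. After knock-down 3 rose (STYXL1, DUSP23 and DUSP22) and 3 fell (DUSP3, STYX and DUSP28), against 15.5% and 16.9% of all genes, with a median of -0.17. The call of DUSP28 was lost, at -0.76 to -0.56, without any 1 library other than shBCLAF1 replicate 1. STYXL1 went from 14.0 ± 0.520 to 21.8 ± 1.21 CPM (0.64, SE 0.07; edgeR adjusted p = 0.00149) and DUSP23 from 9.42 ± 0.209 to 14.3 ± 1.73 (0.61, SE 0.10; adjusted p = 0.00653). DUSP3 went from 124 ± 2.64 to 100 ± 3.02 CPM (-0.31, SE 0.04; adjusted p = 0.00215) and STYX from 67.7 ± 4.18 to 46.7 ± 3.25 (-0.53, SE 0.07; adjusted p = 0.00265). In the RIP 0 of 10 were called, where 11.1% of all genes were higher and 13.6% lower, with a list median of -0.33. DUSP3, DUSP12, DUSP22 and DUSP23 passed the adjusted p there below the minimum change.

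Messages of DUSP1 and of other early genes are known to be cleared through AU-rich elements, so the binders of these elements were listed too. Of 8 tested, 5 fell and 0 rose after knock-down, where 16.9% of all genes fell, with a median of -0.22. With all 9 libraries in 1 fit 1 was called lower. They were ZFP36L1, ZFP36L2, KHSRP, TIAL1 and HNRNPD, the last not called without shCONTROL replicate 1 (-0.19) or 3 (-0.16). ZFP36L1, which promotes decay of such messages, went from 24.0 ± 2.92 to 10.97 ± 0.885 CPM (-1.12, SE 0.12; edgeR adjusted p = 0.00115). ZFP36L2 went from 367 ± 5.49 to 309 ± 4.09 CPM (-0.25, SE 0.03; adjusted p = 0.00204) and KHSRP from 567 ± 22.2 to 456 ± 7.70 (-0.31, SE 0.04; adjusted p = 0.00226). In the RIP 0 of 8 were higher and 1 lower, against 11.1% and 13.6% of all genes. The lower gene was HNRNPD, at 144 ± 13.6 against 318 ± 13.0 CPM (-1.15, SE 0.10; adjusted p = 0.000512), and the list median was -0.18. Without shBCLAF1 replicate 3, TIA1 was called higher (0.16) and ZFP36 lower (-0.17) after knock-down.

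**Figure D4:**
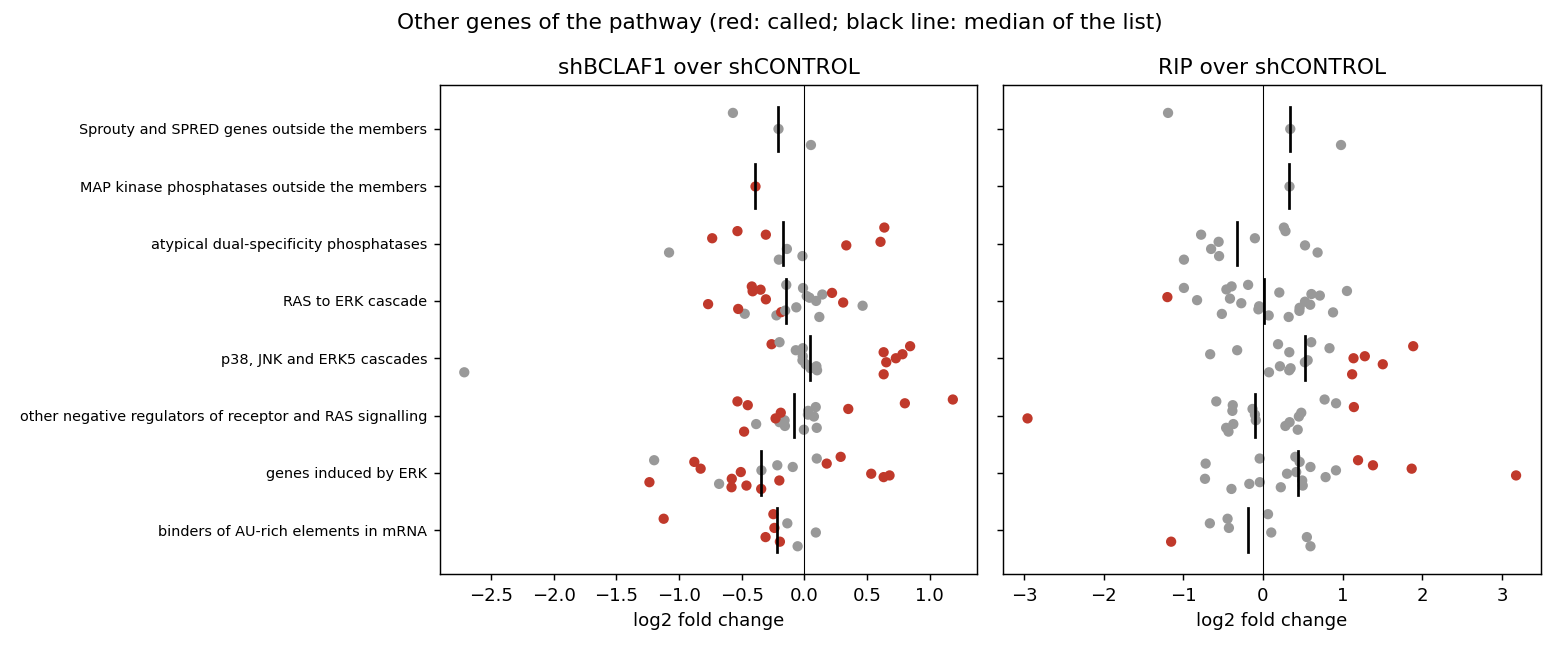
Log2 fold change of each tested gene in 8 lists of pathway genes, after knock-down (left) and in the RIP (right), with called genes in red and the list median as a black bar. Genes of the p38, JNK and ERK5 cascades have 6 red points above 0 and 1 below on the left, and genes induced by ERK have 9 red points below 0 and 5 above.

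Some genes followed a member closely across the 9 libraries. The measure was the root mean square distance of log2 CPM profiles, each centred on its own mean, over 11856 genes compared, and it is a description only. For DUSP7 the nearest were PDE4A at 0.0914, GATA2 at 0.120 and DPYSL3 at 0.124. PDE4A, a phosphodiesterase that breaks down cAMP, averaged 38.3 CPM in shCONTROL, 18.7 after knock-down and 55.5 in the RIP. GATA2, a transcription factor of blood stem cells, averaged 137.5, 68.7 and 197.7. For DUSP10 the nearest were NUB1 at 0.0470, GZF1 at 0.0524 and OSBP at 0.0568, and for SPRY2 they were AFF1 at 0.0722, GOLM1 at 0.0823 and DNAL4 at 0.0837.

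As a check of the hairpin, BCLAF1 itself read 322 ± 8.41 CPM in shCONTROL and 113 ± 12.5 in shBCLAF1 (35.2% of control). In the RIP it read 1079 ± 57.4 CPM, which is no check of the precipitation, since no mock is labelled. Totals ran from 25819144 to 36635268 counts per library. Of 12 myeloid markers 11 were above 3 counts in all libraries (CD14 was at 0), and their summed level was 1928 to 1994 CPM in shCONTROL, 3634 to 4118 after knock-down and 1633 to 1719 in the RIP. This sum moved with the knock-down, and its part in the member values was not tested. It weighs abundant genes most, and its markers did not all rise. FLT3 went from 326 to 286 CPM after knock-down (-0.18, log2) and CSF1R from 54.6 to 39.2 (not called). The call of FLT3 was lost without shCONTROL replicate 2 (-0.14) or 3 (-0.19) or shBCLAF1 replicate 2 (-0.18) or 3 (-0.16). Both genes also stand in the RAS to ERK list, and the sum rose although both fell. The other markers are not given singly. The erythroid (3) and epithelial or stromal (4) markers were all at 0. Of 4 T cell markers, CD3E, CD3G and CD8A were at 0 and CD3D was not, with sums of 10.99 to 11.9, 7.80 to 10.9 and 7.71 to 11.8 CPM in the same order. Of 3 B cell markers MS4A1 was at 0, and the sums were 2.86 to 3.32, 2.29 to 2.802 and 1.35 to 2.72 CPM.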

How the data were processed

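Total RNA was sequenced after removal of ribosomal RNA, with a stranded kit and paired ends, per the labels' protocols. The authors deposited 1 table of estimated counts (expected counts) per gene, all whole numbers, with no normalization. STAR 2.7.11b, StringTie 2.2.3 and hg38 stand in the submitters' processing notes, without their roles. An entry with no gene name held 2.18% to 3.75% of the counts in 8 libraries and was left out.

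Each contrast was fitted over all genes on its own 6 libraries with edgeR 4.0.16 in R 4.3.3, using the default filter on low counts, TMM scaling, group as the only term, a prior count of 0.125 and the quasi-likelihood F-test. A call needed an adjusted p (Benjamini-Hochberg) under 0.05, and in the RIP also a log2 difference no smaller than 1 in size. The p-values do not account for the choice of members. SE is the fitted log2 fold change divided by the square root of its F statistic. Levels are CPM scaled by TMM over the 9 libraries, and 3 counts per library served as the floor. The fitting script was tested on simulated data with known changes and the same dispersion for every gene and group. That test did not cover groups of unequal spread. In the RIP contrast the median coefficient of variation was 17.7% in the RIP and 6.39% in shCONTROL.

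The members, the gene lists and the tests were chosen with earlier results of these data known. All members and BCLAF1 were named, with up to 4 genes per list that passed with the smallest adjusted p in either contrast, every gene of a list of 5 or fewer, and the 3 genes nearest in profile to DUSP7, DUSP10 and SPRY2. Genes that make up a count of 5 or fewer were also named, after their values were seen, as were a few others such as EGR1, EGR2 and EGR3. Same-numbered libraries of different groups had correlations of -0.0345 to 0.0772 between their deviations from the group means. Between shCONTROL and shBCLAF1 they were 0.0212 to 0.0772, against -0.0414 to 0.0153 for libraries of different number. All were small, and whether the numbers pair samples cannot be told from them. Alternatives were DESeq2 1.42.0, RLE scaling, total counts, no filter, 1 fit of 9 libraries, the replicate number as a block, single libraries left out, other minimum changes and, added after seeing the data, pseudogene counts summed with their members. Gene positions and upstream sequences are from RefSeq (GRCh38.p14). Transcript lengths and protein sequences were not used here, and a gene of the lists is not reported here.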

Additional observations from a re-analysis of the deposited data

How the results depend on the processing

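Over the 13 alternatives per contrast that kept the minimum change, 222 of 234 member log2 fold changes kept their direction and their side of the threshold, 6 lost a call, 1 gained one and 5 changed sign. All 5 were of DUSP2, near 0: -0.10 to 0.013 after knock-down and -0.10 to 0.10 in the RIP with single libraries left out, and -0.092 in the RIP with total counts, which moved the RIP median of all genes from -0.05 to -0.17. The number of members higher after knock-down was 0 in place of 1 with all 9 libraries in 1 fit (SPRED1 0.42, not called) and with a minimum log2 fold change of 1, and 0 to 1 with single libraries left out. The number lower was 1 in place of 2 with pseudogene counts summed (DUSP8 -0.19). With no minimum change 4 members were higher (DUSP10 and SPRY2 added) and 1 lower (DUSP6) in the RIP. With the replicate block the member calls numbered 1 higher and 2 lower after knock-down, and 2 higher and 0 lower in the RIP, as without it.

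With all 9 libraries in 1 fit, list calls after knock-down numbered 4 lower and 0 higher for RAS to ERK, 5 lower and 2 higher for ERK-induced genes, 2 lower for other negative regulators, 1 lower for AU-rich element binders and 0 lower for both the p38, JNK and ERK5 cascades and DUSP16, whose call was also lost with total counts and with no filter. With total counts 2 genes of the RAS to ERK list were lower in the RIP. Except where a value shows it, the cause was not tested. Low counts are a limit for DUSP1, SPRED1, DUSP8 and DUSP5, which had 103 to 123, 167 to 210, 176 to 246 and 270 to 305 counts in the shCONTROL libraries.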
